A study of Mus musculus with 12 samples.

Results

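The genes of mouse chromosome 1 were followed in order along the chromosome through 2 embryonic stem cell lines with knocked-down Set and a control line. A chromosome 1 gene was counted in when its brightest single-gene probe set had a mean over the 12 arrays at or above the median of all values in the deposited table, which was 7.22 on the log2 scale. Of 1122 chromosome 1 genes with a single-gene probe set, 656 met this level and 466 did not. They were 5.53% of the 11860 genes that met it on any chromosome, out of 19938 genes tested. Gal3st2c lay just inside the level at 7.24 and Mfsd6 just outside it at 7.21. Mean levels of the 656 genes ran from 7.24 to 13.08 with a median of 9.48, beside a median of 9.44 for the 11204 other genes that met the level. Of the 656 genes, 637 were annotated as protein coding. They were chosen by this level, the mean over all 12 arrays, and by position. No difference between lines entered the rule.

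All arrays measured total RNA from R1 cells, an established mouse embryonic stem cell line. The scrambled line carried a control infection, and KD1 and KD2 were separate lines with knockdown of Set. The labels speak of clones, so each knockdown is represented by a single line. Each line was sampled in 2 states with 2 arrays per state, giving 6 groups. The ESC state was growth in medium with 15% serum and LIF, leukemia inhibitory factor, at 1000 U/ml. The RA state was 4 days with 1 µM retinoic acid in 10% serum without LIF, so that retinoic acid, serum and LIF changed together. The arrays are labelled as biological replicates, so p-values rest on how much repeat arrays of a line differ.

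Set encodes a histone-binding protein that also inhibits protein phosphatase 2A. Mouse chromosomes have their centromere near one end, and gene order here starts from that end. The RNA of a gene usually follows its DNA dose, and embryonic stem cell lines can gain or lose chromosomes or pieces of them in culture. DNA copy number was not measured here. Genes that stand next to each other on a chromosome can also share regulation through common enhancers or chromatin domains.

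The Set probe set with the highest signal read 12.71 to 12.93 in scrambled ESC arrays, 11.94 to 12.13 in KD1 and 11.87 to 12.15 in KD2. In the RA state it read 12.27 to 12.29, 11.17 to 11.29 and 11.70 to 11.99 in the same order, so neither knockdown line overlapped scrambled on it. That probe set also lists the chromosome 1 pseudogene BC085271. Of the 2 dimmer probe sets that list Set alone, the brighter read 8.39 and 8.82 in scrambled ESC arrays, 7.90 and 8.12 in KD1 and 8.54 and, in replicate 2, 6.91 in KD2, and in RA 6.45 and 6.68, 6.61 and 6.72, and 6.79 and 7.91. On it ESC KD2 replicate 1 lay within scrambled, and no RA KD2 array was below scrambled. Replicate 2 of KD2 went against its state label in ESC and in RA alike. Their mean correlation with arrays of their labelled state was 0.839 and 0.836, and with arrays of the other state 0.956 and 0.957. The mean level of 5 retinoic acid response markers was 11.28 in the array labelled ESC and 6.82 in the array labelled RA, against 6.6 to 7.0 in other ESC arrays and 11.0 to 11.3 in other RA arrays. These 2 arrays are called displaced below, they were kept under their labels in all 12-array values, and results are also given from the other 10 arrays. In the 10-array fit KD2 has 1 array in each state, and its spread is taken to be that of the remaining groups. Each array's median over the whole table lay between 7.17 and 7.24.

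The promoters of 4 genes on which the description turns are shown for orientation. Tsn and Odr4 stand at the borders of a stretch in which KD2 differed from scrambled, Ddr2 was lower in both knockdown lines in ESC, and Ihh was higher in KD1 only after retinoic acid. Each run of 300 bases covers 250 before and 50 after the annotated start, 5′ to 3′ on the gene's strand, from RefSeq on GRCm38.p6. The windows are chr1:118310679-118310978, chr1:150393031-150393330, chr1:170088895-170089194 and chr1:74951623-74951922, all on the minus strand. Odr4 has 2 listed starts, of which the first is shown. Capitals mark matches, on either strand, to the GC box with letters GGGCGG, the CCAAT box with letters CCAAT and the TATA box with letters TATAAA. These matches do not overlap in the windows shown.
Tsn: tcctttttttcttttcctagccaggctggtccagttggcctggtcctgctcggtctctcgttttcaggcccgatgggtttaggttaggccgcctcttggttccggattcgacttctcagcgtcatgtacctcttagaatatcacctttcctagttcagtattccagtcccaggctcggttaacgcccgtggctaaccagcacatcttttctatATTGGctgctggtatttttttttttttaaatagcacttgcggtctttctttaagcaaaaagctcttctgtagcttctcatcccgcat
Odr4: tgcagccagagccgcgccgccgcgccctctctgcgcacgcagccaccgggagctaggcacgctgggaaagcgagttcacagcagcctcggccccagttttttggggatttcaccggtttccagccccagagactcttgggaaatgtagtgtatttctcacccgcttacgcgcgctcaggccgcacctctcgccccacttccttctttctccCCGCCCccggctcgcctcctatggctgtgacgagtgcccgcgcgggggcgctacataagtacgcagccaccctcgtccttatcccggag
Ddr2: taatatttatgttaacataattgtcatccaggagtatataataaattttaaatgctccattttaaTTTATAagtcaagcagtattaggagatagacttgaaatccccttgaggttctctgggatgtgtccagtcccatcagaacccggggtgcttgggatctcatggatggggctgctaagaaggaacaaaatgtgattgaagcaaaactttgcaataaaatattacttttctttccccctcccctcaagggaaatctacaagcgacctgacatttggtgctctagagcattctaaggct
Ihh: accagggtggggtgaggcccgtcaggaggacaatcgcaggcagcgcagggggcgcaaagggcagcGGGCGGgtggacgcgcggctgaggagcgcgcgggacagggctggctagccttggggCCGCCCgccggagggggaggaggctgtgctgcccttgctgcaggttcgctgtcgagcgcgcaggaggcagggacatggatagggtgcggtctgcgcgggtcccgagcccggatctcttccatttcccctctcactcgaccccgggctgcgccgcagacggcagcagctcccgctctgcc
Tsn held 1 CCAAT box, Odr4 1 GC box, Ddr2 1 TATA box and Ihh 2 GC boxes. A promoter was found for 560 of the 656 genes by symbol. GGGCGG stood in 66.4% of these, in 67.4% of 8958 promoters of genes elsewhere that met the level, and in 35.9% of all 27025 promoters in the RefSeq table. CCAAT stood in 38.4%, 38.5% and 37.9%, and TATAAA in 5.54%, 6.79% and 14.2%. A match describes letters only. By these motifs the chromosome 1 promoters were within 2 percentage points of those of other genes at like level.

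In KD1 the RNA of chromosome 1 was shifted upward over most of its length, in ESC and after retinoic acid. The median log2 difference from scrambled over the 656 genes was 0.16 in ESC and 0.22 in RA, while the median over the 11204 genes elsewhere was -0.04 in each state. The gap between chromosome 1 and the rest was 0.20 in ESC and 0.26 in RA, or 1.15-fold and 1.20-fold. KD2 showed no such shift over the chromosome as a whole, with medians of -0.02 in ESC and -0.04 in RA beside 0.01 and 0.01 elsewhere. No value of these medians is tested, because genes of a chromosome are not replicates.

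The shift was present in each KD1 array. The gap to the rest of the genome was 0.19 and 0.22 in the ESC KD1 arrays and 0.25 and 0.27 in the RA KD1 arrays. Scrambled arrays, each set against the mean of its own pair, ran from -0.03 to 0.03. The 4 KD2 arrays ran from -0.07 to -0.02, the displaced arrays included. The KD1 arrays thus stood apart from all the others, and no KD2 array reached any of them. Centring each array on its median moves every gene of an array alike, so it cannot change these gaps and is no check on them.

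Many genes took part rather than a few. In ESC, 522 of the 656 genes (79.6%) were above 0 in KD1, beside 42.2% elsewhere. After retinoic acid the count was 502 (76.5%), beside 43.2% elsewhere. In both states 427 genes were above 0 (65.1%), beside 21.7% of genes elsewhere, and these state comparisons use different arrays. The lower and upper quartiles were 0.04 and 0.28 in ESC and 0.01 and 0.42 in RA.

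Among 20 chromosomes, the 19 autosomes and X, chromosome 1 had the highest median in KD1 in both states. The next was chromosome 14, at 0.05 in ESC and 0.06 in RA. The lowest was chromosome 8, at -0.20 and -0.25, and chromosome 8 was also lowest in KD2, at -0.13 and -0.17. In the direct comparison of KD1 with KD2, which does not use scrambled arrays, chromosome 1 was again highest, with medians of 0.19 in ESC and 0.27 in RA.

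**Figure D1:**
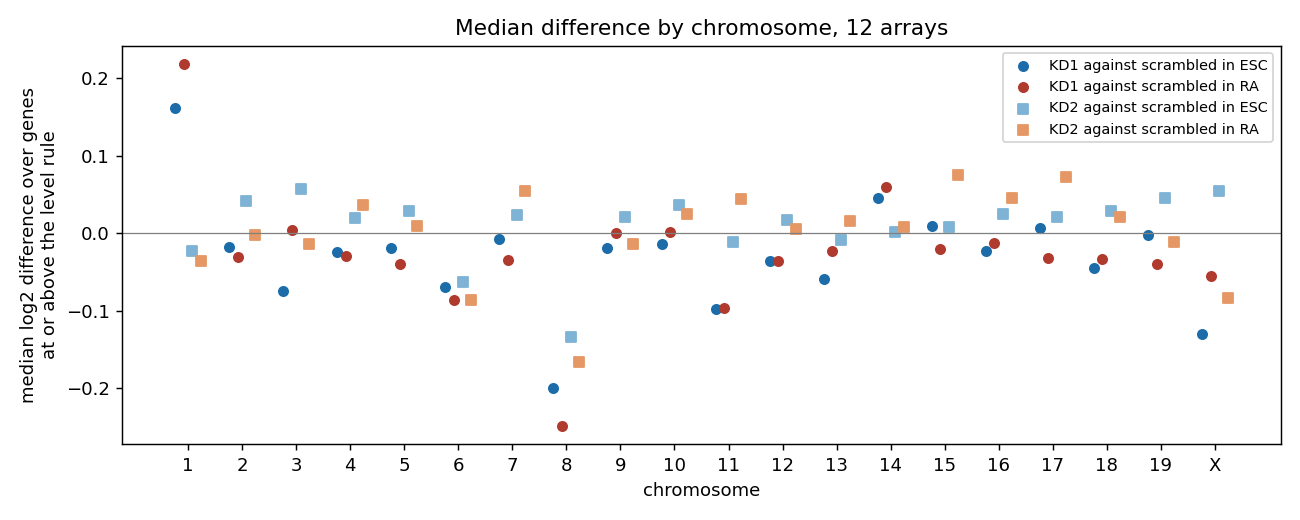
Median log2 difference from scrambled (vertical axis) for the genes of each chromosome at or above the level (horizontal axis), with KD1 as circles and KD2 as squares, in ESC (blue) and RA (red and orange), from all 12 arrays. Chromosome 1 stands at 0.16 and 0.22 in KD1 and at -0.02 and -0.04 in KD2.

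Along the chromosome the KD1 shift began near the centromere end and ran to the far end. With the genes cut into 20 consecutive blocks, 19 had medians above 0 in ESC and 19 in RA, the highest at 0.30 and 0.32. The remaining block was the first, with 33 genes, where KD1 was lower at -0.27 in ESC and -0.13 in RA. With 10 blocks, 9 were above 0 in ESC and 10 in RA. A running median over 21 neighbouring genes, taken on the mean difference of the 4 KD1 arrays, stayed above 0.1 from Tram2 to Lpgat1 without a break, over 607 genes. The longest such run in KD1 on any other chromosome had 82 genes, on chromosome 14 from Entpd4 to Ndfip2, where the running median was higher, at 0.78.

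The change from lower to higher fell between Jph1, which encodes a junctophilin, and Mcm3, a subunit of the replicative helicase. Of the 20 genes before Mcm3, 17 were below 0 in KD1, with a median of -0.18. Of the 20 genes from Mcm3 on, 18 were above 0, with a median of 0.29. The borders named here were placed after the values were seen, so the counts on either side are fixed in part by that choice.

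KD2 was raised in a single inner stretch. Its running median stayed above 0.1 over 112 genes from Dsel to Ptgs2, and the longest such upward run elsewhere in KD2 had 36 genes, on chromosome 15. Runs below -0.1 also occurred in KD2, the longest with 271 genes on chromosome 8 and the next with 72 genes on chromosome 1 itself, from Mrpl30 to Nop58 at -0.14. Dsel itself was at -0.37 and Tsn, the next gene, at 0.24 on the mean over 4 KD2 arrays. Tsn encodes translin, a nucleic acid binding protein. Of the 20 genes before Tsn, 17 were below 0 in KD2, and all 20 genes from Tsn on were above 0, with a median of 0.25. At the far border, 18 of the 20 genes up to Ptgs2, which encodes cyclooxygenase 2, were above 0, and 13 of the 20 from Odr4 on were below 0. Ptgs2 was at 0.40 and Odr4 at -0.33.

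**Figure D2:**
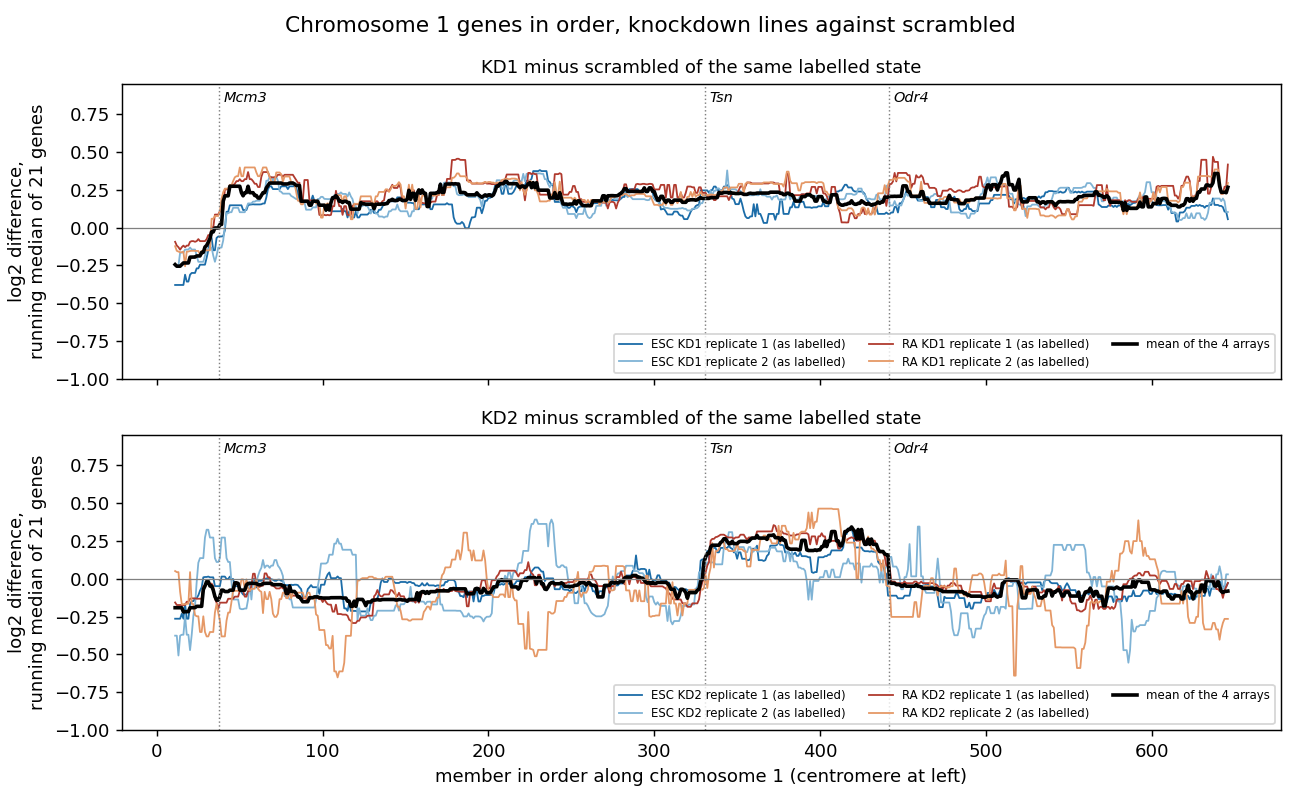
Running median over 21 neighbouring genes of the log2 difference from scrambled (vertical axis) against gene order on chromosome 1 (horizontal axis), for each array and for the mean of the 4 arrays of KD1 (top) and KD2 (bottom). KD1 is above 0.1 from Tram2 to Lpgat1, and the KD2 mean is above 0.1 from Dsel to Ptgs2 and near or below 0 outside that stretch.

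Read off this profile, the chromosome was described in 4 stretches, of 37 genes from the start to Jph1, 293 from Mcm3 to Dsel, 111 from Tsn to Ptgs2 and 215 from Odr4 to the end. The borders were set after the values were seen, so the stretch values are a description. The order starts with 4930527J03Rik, which RefSeq may hold on a piece not placed within the chromosome, and Sox17 is the next gene.

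In the stretch from Tsn to Ptgs2, both knockdown lines were raised. The medians of the KD2 arrays were 0.18 and 0.11 in ESC and 0.28 and 0.26 in RA, the second of each pair being the displaced array. The medians of the KD1 arrays were 0.19 and 0.21 in ESC and 0.21 and 0.23 in RA. Scrambled arrays, each set against the mean of its own pair, ran from -0.05 to 0.05. No array of either knockdown line overlapped them, which for KD2 follows in part from how the borders were set. On the mean over 4 arrays, 102 of the 111 genes were above 0 in KD2 and 93 in KD1, with medians of 0.25 and 0.20, or 1.19-fold and 1.15-fold. Between the lines the median difference was 0.00 in ESC and -0.06 in RA.

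On either side of that stretch only KD1 was raised. From Mcm3 to Dsel the KD1 arrays had medians of 0.16 and 0.19 in ESC and 0.26 and 0.23 in RA, and the KD2 arrays of -0.05, -0.08, -0.08 and -0.10. From Odr4 to the end they were 0.16, 0.18, 0.22 and 0.20 in KD1 and -0.10, -0.07, -0.05 and -0.11 in KD2. KD1 stood above KD2 by a median of 0.25 in ESC and 0.31 in RA in the former stretch and by 0.22 and 0.36 in the latter. The lines thus stood apart in both of these stretches, and their medians lay close together within the inner stretch between them.

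From the start to Jph1 both knockdown lines were below scrambled. The KD1 arrays had medians of -0.31 and -0.23 in ESC and -0.09 and -0.15 in RA. The KD2 arrays had -0.13, -0.25, -0.13 and -0.09. On the mean over 4 arrays, 30 of the 37 genes were below 0 in KD1 and 28 in KD2. Both comparisons use the same scrambled arrays, and between the lines the median difference was -0.03 in ESC and -0.04 in RA.

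**Figure D3:**
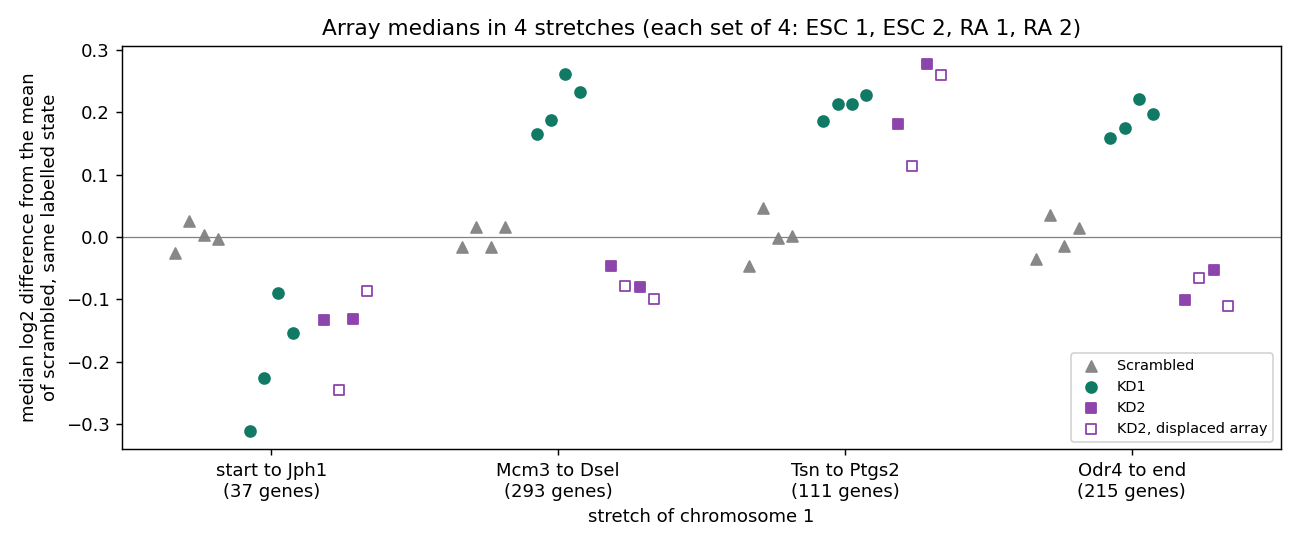
Median log2 difference of each array from the mean of the scrambled arrays of its labelled state (vertical axis) in 4 stretches of chromosome 1 (horizontal axis), with scrambled as triangles, KD1 as circles, KD2 as squares and the displaced KD2 arrays as open squares. KD1 lies between 0.16 and 0.26 in 3 stretches, and KD2 is above scrambled from Tsn to Ptgs2 only.

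The median KD1 difference from scrambled rose with the level of the gene, and more so in RA than in ESC. With the genes ordered by mean level and cut into 3 parts, the median difference in RA was 0.09 in the lowest 219 genes, 0.25 in the middle 218 and 0.26 in the highest 219. In ESC it was 0.13, 0.17 and 0.18. Of the highest 219 genes, 90.0% were above 0 in RA and 86.8% in ESC, beside 59.8% and 73.1% of the lowest 219. Array signals near background compress differences, and the part of this in the order was not tested. Genes elsewhere were not cut into these parts. Read against genes elsewhere, the KD1 gap grew with the level rule in both states. It was 0.11 in ESC with no level rule and 0.23 at the 75th percentile, and 0.12 and 0.27 in RA.

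Across the 656 genes the KD1 differences in ESC and RA had a Spearman correlation of 0.20, beside 0.21 over genes elsewhere. It describes these genes, which share arrays within a state and are not independent. For KD2 it was -0.50 with 12 arrays and 0.33 with 10, beside -0.64 and 0.23 elsewhere, so the sign turned with the displaced arrays. The KD1 differences of single genes thus ranked alike only weakly between states, and the part of array noise in this was not tested.

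Gene by gene, 297 of the 656 genes (45.3%) in ESC had both KD1 arrays above both scrambled arrays, beside 18.8% of all genes at the level. Another 48 had both below, beside 25%. In RA the counts were 416 higher and 89 lower, beside 29.4% and 37.5%. For KD2 the counts in ESC were 126 higher and 163 lower, beside 24% and 18.5%, and in RA 155 and 203, beside 27.3% and 23.4%. Chromosome 1 was therefore above the genome in upward and below it in downward separations in KD1, and the reverse held in KD2.

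With an adjusted p below 0.05 in limma over all 19938 genes, 0 chromosome 1 genes rose in KD1 in ESC, beside 0.0337% of genes at the level, and 1 fell, beside 0.0253%. At an unadjusted p below 0.05 there were 65 higher and 10 lower (9.91% and 1.52%), beside 2.82% and 3.65%. In KD1 in RA, 34 rose, beside 2.07%, and 3 fell, beside 0.641%. In KD2 in ESC limma called 0 higher and 1 lower, beside 0% and 0.0422%, with 58 and 53 at an unadjusted p below 0.05 (8.84% and 8.08%), beside 8.09% and 4.08%. In KD2 in RA 1 rose and 1 fell, beside 0.0422% and 0.11%.

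Without the displaced arrays limma called more. KD1 then had 20 higher and 6 lower in ESC, beside 1.3% and 1.43% of genes at the level, and 137 higher and 24 lower in RA, beside 7.79% and 8.36%. KD2 had 13 higher and 1 lower in ESC, beside 1% and 0.228%, and 4 higher and 5 lower in RA, beside 0.379% and 0.531%. In KD1 in RA the called members that rose were 20.9% of the 656. With 12 arrays, the 37 called in KD1 in RA dropped to 3 without either RA KD1 replicate, to 6 and 5 without RA Scrambled replicate 1 or 2 and to 19 without either ESC KD1 replicate, so that count rests on each of these arrays.

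Genes higher in KD1 in both states are described first. Niban1, which encodes a protein of the cellular stress response, read 8.35 and 8.44 in scrambled ESC arrays and 10.19 and 10.34 in KD1. In RA it read 7.86 and 7.49 in scrambled and 9.62 and 9.36 in KD1. The groups did not overlap in either state, and the difference was 1.87 ± 0.33 (SE) in ESC and 1.82 ± 0.33 in RA, or 3.66-fold and 3.53-fold. The RA difference was called with 12 arrays (limma adjusted p = 0.0293), and the ESC difference only with 10 (adjusted p = 0.15 with 12 and 0.0015 with 10).

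Casp8, the initiator caspase of death receptor signalling, read 7.69 and 8.32 in scrambled and 9.31 and 9.78 in KD1 in ESC. In RA it read 9.96 and 10.27 in scrambled and 10.97 and 11.10 in KD1. KD1 was above scrambled throughout, by 1.54 ± 0.45 in ESC and 0.92 ± 0.45 in RA, and the calls were made only with 10 arrays (limma adjusted p = 0.0128 and 0.0314). With 10 arrays, 11 genes rose in KD1 in both states, listed here after their values were seen, among them Atp1b1, a sodium pump subunit, Capn2, a calpain protease, and Degs1, an enzyme of ceramide synthesis. The others were Casp8, Fam178b, Lamc1, Niban1, Rnf25, Rnpep, Tagln2 and Tor3a. Over all genes at the level, 73 rose in both states under the same fit.

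The largest KD1 rises came after retinoic acid. Sox17, a transcription factor of endoderm, read 7.03 and 7.31 in scrambled RA arrays and 9.57 and 9.65 in KD1, while it lay between 6.73 and 7.12 in scrambled and KD1 ESC arrays. The difference in RA was 2.44 ± 0.33, or 5.42-fold (limma adjusted p = 0.00849). Lamc1, the laminin gamma 1 chain of basement membranes, read 11.71 and 11.63 in scrambled and 13.64 and 13.68 in KD1 in RA. This was 1.99 ± 0.24, or 3.96-fold (limma adjusted p = 0.0048).

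Ihh, the Indian hedgehog ligand, read 7.71 and 7.92 in scrambled RA arrays and 9.84 and 9.76 in KD1. All other arrays of the series lay between 7.80 and 8.10 for Ihh, apart from the scrambled RA array at 7.71. The RA difference was 1.98 ± 0.15, or 3.95-fold (limma adjusted p = 0.000585). Its KD1 difference changed between states by 1.85 ± 0.21 (limma adjusted p = 0.0128), the single chromosome 1 gene called higher for that change with 12 arrays, beside 0.211% of genes at the level. With 10 arrays 27 were called higher and 12 lower, beside 3.49% and 2.55%.

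Golt1a, named for a role in Golgi transport, rose by 2.00 ± 0.20 in RA, from 7.18 and 6.91 in scrambled to 9.03 and 9.06 in KD1. Mgst3, a microsomal glutathione transferase, rose by 1.83 ± 0.28, from 8.43 and 8.49 to 10.35 and 10.23. Both groups were clear of scrambled, with limma adjusted p = 0.002 and 0.0133. Mtarc2, a mitochondrial molybdenum enzyme, at 1.59, Elf3, an epithelial ETS factor, at 1.53, and Cyp27a1, the sterol 27-hydroxylase, at 1.39 were called with 12 and with 10 arrays. Atf3, a stress-induced transcription factor, at 1.51 was called with 10 only.

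Markers of extraembryonic endoderm moved with these genes. The 6 such markers were Gata6, Gata4, Sox7, Dab2, Cubn and Lama1, all on other chromosomes. Their mean level was 9.86 and 9.92 in scrambled RA arrays and 12.50 and 12.57 in RA KD1. RA KD2 was at 10.76 in replicate 1 and 8.77 in the displaced array. There, 3 of the 6 markers were above scrambled with 12 arrays and 4 with 10. In RA KD1 no marker of the 6 was below 11.47, and 6 of 6 were above scrambled, 3 of them called by limma with 12 arrays and 6 with 10. In ESC the mean was 7.70 and 7.58 in scrambled and 8.40 and 8.34 in KD1. In KD2 it was 8.86 in replicate 1 and 10.98 in the displaced array. All 6 were above scrambled in both knockdown lines in ESC, with 0 called in 12 arrays and, in 10 arrays, 4 in KD1 and 3 in KD2. The part of such cells in the rises of Sox17, Lamc1 and Ihh was not tested, and in bulk RNA more cells of a type and more RNA per cell cannot be told apart.

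Few genes of the chromosome went down in KD1. Ddr2, a receptor tyrosine kinase for fibrillar collagen, read 9.22 and 9.49 in scrambled ESC arrays and 7.57 and 7.35 in KD1. In RA it read 8.12 and 8.20 in scrambled and 7.28 and 6.84 in KD1. In ESC it fell by 1.90 ± 0.20 and after retinoic acid by 1.10 ± 0.20 (limma adjusted p = 0.0231 and 0.0254), and was the single gene called in both states with 12 arrays. Leaving out any 1 ESC KD1, ESC Scrambled or RA Scrambled array ended the ESC call. KD2 in ESC read 7.87 in replicate 1 and 7.51 in the displaced array, both below scrambled. Scrambled was lower in RA than in ESC, so in the displaced array, which resembles RA arrays, line and state cannot be told apart. The KD2 difference was -1.67 ± 0.20 with 12 arrays (limma adjusted p = 0.0357) and -1.49 without the displaced arrays. The 12-array call was lost when any 1 array was left out other than an RA KD2 array. With a replicate block none of the 3 was called (limma adjusted p = 0.081, 0.0509 and 0.0976, in the order given), and with the block and without the displaced arrays all were. In RA KD2 read 7.86 and 7.98, at -0.24 ± 0.20 from scrambled, which was not called (limma adjusted p = 0.54).

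Aim2, a sensor of cytosolic DNA, read 9.60 and 9.64 in scrambled ESC arrays and 8.75 and 8.99 in KD1. In RA it read 7.44 and 7.64 in scrambled, 6.43 and 6.11 in KD1 and 6.32 in KD2 replicate 1. With 10 arrays it fell in KD1 by 0.75 ± 0.15 in ESC and 1.28 ± 0.15 in RA, and in KD2 in RA by 1.22 ± 0.19 (limma adjusted p = 0.0447, 0.0009 and 0.0207). The displaced arrays read 6.57 in ESC KD2 and 9.04 in RA KD2, and with them no Aim2 difference was called.

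Other falls in KD1 were Pcp4l1 at -1.28 ± 0.23 and Ptprv, a receptor-type phosphatase, at -0.63 ± 0.13 in RA (limma adjusted p = 0.0257 and 0.0474). With 10 arrays, RA falls included Lefty1, an inhibitor of Nodal, at -1.37, Sulf1, which trims heparan sulfate, at -1.17, and Stau2, an RNA-binding protein, at -1.02. ESC falls included Sgk3, a serum and glucocorticoid-regulated kinase, at -1.54, Rims1 at -0.67 and Lypla1 at -0.44. Sgk3, Sulf1, Stau2 and Lypla1 lie in the stretch from the start to Jph1. ESC rises with 10 arrays included Gbx2, a homeobox factor, at 1.28, and Pea15a at 1.10.

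BC085271, named here after its values were seen, is a pseudogene related to Set. Its own probe set read 9.86 and 9.38 in scrambled ESC arrays and 8.51 and 8.35 in KD1. It fell by 1.19 ± 0.20 in ESC and 0.76 ± 0.20 in RA with 10 arrays (limma adjusted p = 0.0195 and 0.0365). As Set and BC085271 share sequence on other probe sets, this value is uncertain as a measure of the pseudogene.

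**Figure D4:**
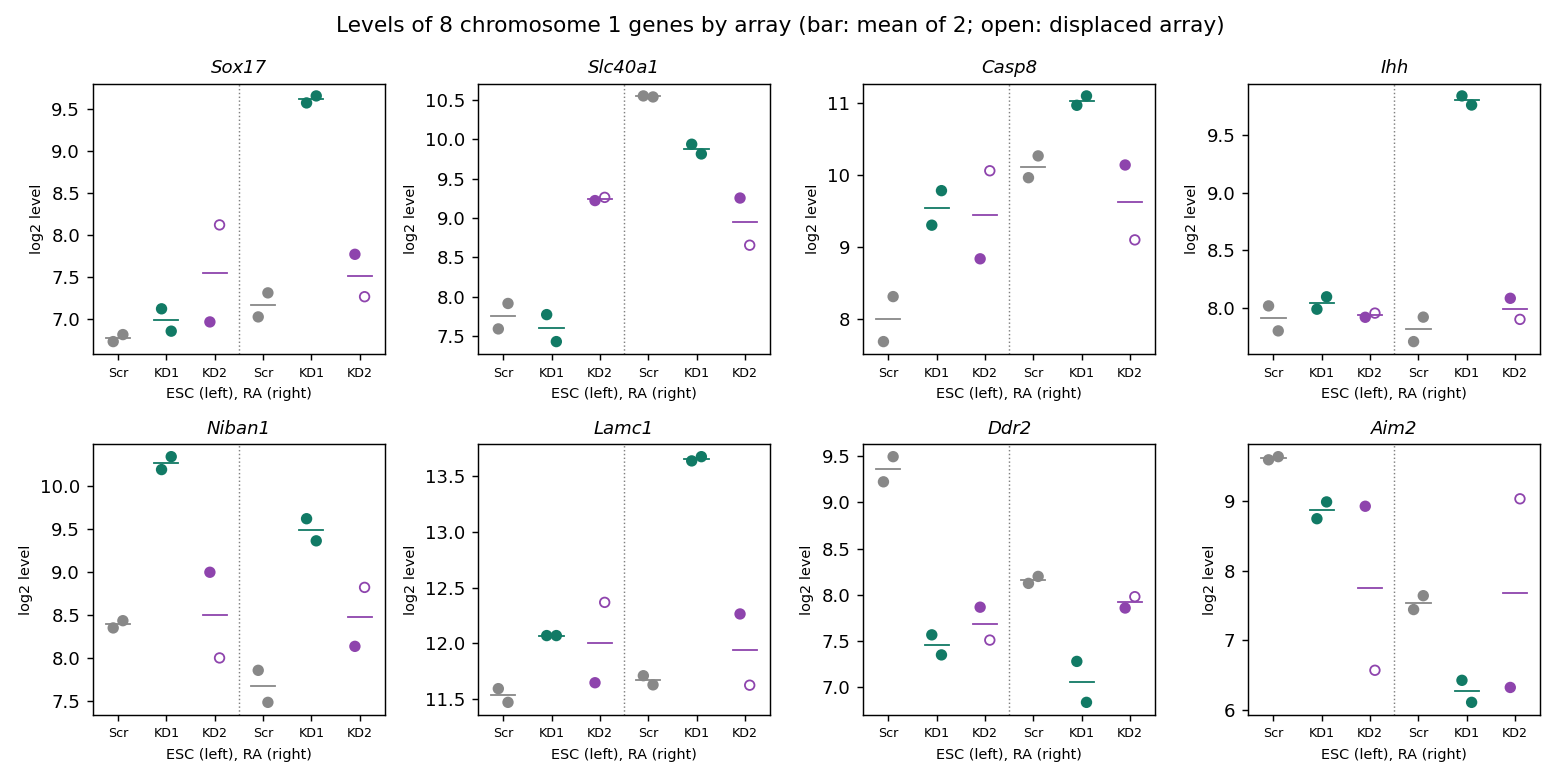
Log2 level (vertical axis) of 8 chromosome 1 genes in each array (points), by line and state (horizontal axis), with scrambled in grey, KD1 in green, KD2 in purple, displaced arrays open and bars at the mean of 2 arrays. Ddr2 is highest in scrambled ESC, and Ihh stands out in the RA KD1 arrays at 9.84 and 9.76.

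In KD2 single genes went both ways. Slc40a1, the iron exporter ferroportin, read 7.59 and 7.91 in scrambled ESC arrays, 7.77 and 7.43 in KD1, and 9.22 and 9.26 in KD2. In RA it read 10.55 and 10.54 in scrambled and 9.25 and 8.65 in KD2. KD2 was above scrambled in ESC and below it in RA. The displaced arrays, at 9.26 in ESC and 8.65 in RA, resemble the other state, where scrambled also differed in that direction. Their side of scrambled therefore cannot be read as a line difference, and the reading rests on 1 KD2 array in each state. The difference was 1.49 ± 0.22 in ESC, not called with 12 arrays (limma adjusted p = 0.0865) and called with 10 at 1.47 ± 0.20 (adjusted p = 0.0148), and -1.59 ± 0.22 in RA (adjusted p = 0.0385). The change between states was -3.08 ± 0.32 (limma adjusted p = 0.0359), the single chromosome 1 gene called for it with 12 arrays, beside 0.00843% of genes at the level.

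Tgfb2, a ligand of the TGF-beta family, read 7.44 and 7.58 in scrambled ESC arrays, 9.15 in KD2 replicate 1 and 10.78 in the displaced array. In RA it read 11.89 and 11.82 in scrambled, 10.65 in KD2 replicate 1 and 8.40 in the displaced array. With 10 arrays it rose by 1.64 ± 0.20 in ESC and fell by 1.20 ± 0.20 in RA (limma adjusted p = 0.00958 and 0.0301), and with 12 neither was called. In the same fit KD2 in ESC also had Itpkb, an inositol phosphate kinase, at 1.35 and Shisa4 at 1.29.

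Within the raised inner stretch of 111 genes, limma called 0 KD2 genes with 12 arrays. With 10 arrays it called 4 higher in ESC, Mapkapk2, Rnpep, Shisa4 and Tmem37, beside 1% of genes at the level, and in RA 2 higher, Aspm and Nuak2, beside 0.379%, and 1 lower, beside 0.531%; these genes are listed after their values were seen. Aspm, a spindle pole protein, read 9.00 and 8.91 in scrambled RA arrays, 9.71 in KD2 replicate 1, and 9.56 and 9.60 in KD1. It rose in KD2 by 0.75 ± 0.13 with 10 arrays (limma adjusted p = 0.0424). Pla2g4a, the cytosolic phospholipase A2 that supplies Ptgs2 with substrate, went the other way from its neighbours, at 9.25 and 9.41 in scrambled RA arrays and 7.48 in KD2 replicate 1. It fell by 1.85 ± 0.30 (limma adjusted p = 0.0302 with 10 arrays and 0.0584 at -2.33 with 12).

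Elsewhere on the chromosome, Fam178b read 8.16 and 8.34 in scrambled RA arrays and 9.62 and 9.76 in KD2, a rise of 1.44 ± 0.21 (limma adjusted p = 0.0397). With 10 arrays KD2 in RA also had Nuak2, an AMPK-related kinase, at 1.34 and Lamc1 at 0.59 higher, and Gulp1, an engulfment adaptor, at -1.13. Fam178b and Gulp1 lie in the stretch from Mcm3 to Dsel and Nuak2 in that from Tsn to Ptgs2.

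Compared directly, KD1 and KD2 differed in RA for 25 genes higher in KD1 and 2 lower, beside 1.48% and 0.245% of genes at the level. Of the 25, 13 lay among the 293 genes from Mcm3 to Dsel and 9 among the 215 from Odr4 to the end. Another 2 lay among the 111 from Tsn to Ptgs2 and 1 among the 37 before Mcm3. The borders were set after the values were seen, so this split is fixed in part by that choice. The 27 calls became 1 without either RA KD1 replicate and 106 without RA KD2 replicate 1. No share over all genes is given for these fits, so they show only how the count depends on the arrays. Sox17 was higher in KD1 by 2.09 ± 0.33, Ihh by 1.80 ± 0.15 and Mtarc2 by 1.77 ± 0.19 (limma adjusted p = 0.0227, 0.00143 and 0.00444). Lefty1 was lower by 3.14 ± 0.55 (limma adjusted p = 0.0307), with KD1 at 6.85 and 6.53 and KD2 at 9.22 and, in the displaced array, 10.45. In ESC 0 were called higher, beside 0.11%, with 168 (25.6%) at an unadjusted p below 0.05, beside 5.35%, and Slc40a1 was the 1 called lower, beside 0.0843%.

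The genes were also read by role, from lists drawn up by general knowledge with earlier results of these data known. All 23 listed genes of the cell cycle, DNA replication and repair met the level. In KD1, 22 were above 0 in ESC with a median of 0.11, and 23 in RA with a median of 0.38, beside medians of 0.16 and 0.22 for the 656 genes. With 12 arrays limma called 0, and with 10 it called 8 of the 23 higher in RA, beside 7.79% of genes at the level, among them Kif14, a mitotic kinesin, Nek2, a centrosome kinase, and Mcm3. Kif14 read 8.42 and 8.89 in scrambled RA arrays, 9.27 and 9.49 in KD1 and 9.38 in KD2 replicate 1. The KD1 and scrambled arrays did not overlap, and Kif14 rose by 0.72 ± 0.19 (limma adjusted p = 0.0362). In KD2 in RA, 20 of the 23 were above 0 with 12 arrays and 19 with 10, at medians of 0.38 and 0.18, with 0 and 1 called. In KD2 in ESC, 5 were above 0 with 12 arrays and 10 with 10, at medians of -0.28 and -0.02, with 0 called in either.

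Of 19 genes for mitochondrial proteins, 16 were above 0 in KD1 in ESC and 17 in RA, with medians of 0.17 and 0.29. Of 16 chromatin and splicing genes 14 were above 0 in each state, with medians of 0.16 and 0.23, and of 10 ribosome, translation and folding genes 8, with medians of 0.09 and 0.20. With 12 arrays limma called 0 in these lists in KD1. The medians of these broadly expressed groups lay near the chromosome's own.

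The other lists held genes of development and immunity. Of 10 extracellular matrix genes, 5 were above 0 in KD1 in ESC and 4 in RA, with medians of 0.05 and -0.06, and Lamc1 rose while Ddr2 fell. Of 17 signalling ligands and receptors, 13 were above 0 in ESC at a median of 0.38 and 9 in RA at 0.06, with Ihh the single gene called with 12 arrays. Of 14 developmental transcription factors, Sox17 and Elf3 rose in RA with 12 arrays. Of 8 pluripotency and early embryo genes, 7 were above 0 in ESC and 3 in RA, with medians of 0.36 and -0.44 and 0 called with 12 arrays. Of 4 interferon and innate immunity genes, Ikbke, an IkappaB kinase, was called higher in RA with 12 arrays. Aim2 changed most in that list, at -1.28, and was not called with 12 arrays. Over all genes at the level, 2.07% were called higher and 0.641% lower in KD1 in RA with 12 arrays.

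In scrambled cells, chromosome 1 genes differed in both directions between the RA and ESC states, where retinoic acid, serum and LIF changed together. With 12 arrays 79 genes rose and 54 fell, beside 10.5% and 7.59% of genes at the level, and with 10 arrays 195 and 190, beside 29.9% and 28%. Leaving out 1 of the 12 arrays gave between 1 and 281 calls, with 1 or 2 where a scrambled array was left out. These counts too are given without the share over all genes. Tgfb2 rose by 4.35 ± 0.69, Ankrd44 by 3.33 ± 0.77 and Shisa4 by 3.30 ± 0.72. Gsta3, a glutathione transferase, fell by 2.66 ± 0.73, Pecr, a peroxisomal reductase, by 1.94 ± 0.55 and Npl by 1.91 ± 0.46 (limma adjusted p = 0.0475, 0.0495 and 0.0417). Of the 23 cell cycle genes 10 fell, among them Bard1, a partner of BRCA1, and the median was -0.81. Of the 8 pluripotency and early embryo genes 0 were above 0, at a median of -2.10.

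The chromosome's median difference of RA from ESC in scrambled cells was -0.04, beside -0.01 elsewhere, so it lay near that of the genome. Centring the arrays shifted the all-gene median of this comparison from -0.01 to -0.12, that of KD1 against KD2 in ESC from -0.04 to 0.09 and that of the KD2 state difference from 0.00 to 0.11, and chromosome 1 values are read against those medians.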

How the data were processed

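Biotin-labelled cRNA from 300 ng total RNA of 12 samples was read on Affymetrix arrays with 1 channel. The deposited values are log2 intensities that the authors made with RMA, per the submitters' processing notes. The precision of a group mean is limited by its 2 arrays. Aligner and genome build do not apply or are not given in the sources used here. Of 35556 probe sets, 23410 were annotated, 21789 to 1 gene symbol, 1621 to several and 12146 to none listed, and 21698 of the former matched RefSeq by Entrez identifier. The brightest single-gene probe set stood for a gene, 604 of the 656 genes having only 1. RefSeq GRCm38.p6 gave gene names and order.

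Levels were fitted by limma 3.58.1 in R 4.3.3 over 19938 genes, as 6 groups with an intensity trend, with Benjamini-Hochberg adjustment over all genes and a threshold of 0.05. Residual degrees of freedom were 6, and prior degrees 2.76. On simulated data for KD1 against scrambled in ESC with 19938 genes, the fit recovered 52 of 100 genes changed by 1 and 89 of 100 changed by 2 on the log2 scale, with 8 false calls. Figures were drawn with matplotlib 3.10.9.

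Named genes were, per comparison of a line with scrambled, up to 6 called genes each way by size with arrays that do not overlap, then up to 4 more from the 10-array fit; where 0 were called, the 2 largest differences as values. Up to 3 each way were taken for the other comparisons, and predicted genes were left out. Genes at borders of stretches are named by position. The genes and lists were chosen with earlier results of these data known. Alternatives changed the arrays, the replicate block, the intensity trend, centring, the level rule and the probe set.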

Additional observations from a re-analysis of the deposited data

Results flagged for a closer look

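For Ihh, the KD1 difference from scrambled was larger after retinoic acid than in ESC by 1.85 on the log2 scale, as the test of the state difference called it (limma adjusted p = 0.0128). It read 9.84 and 9.76 in the RA KD1 arrays and 7.99 and 8.10 in the ESC KD1 arrays. Leaving out any of the 8 KD1 or scrambled arrays ended the call (adjusted p from 0.0605 to 0.107), and leaving out any KD2 array did not.

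For Slc40a1, the KD2 difference from scrambled turned from higher in ESC to lower in RA, a change of -3.08 (limma adjusted p = 0.0359). Each KD2 group holds a displaced array, at 9.26 in ESC and 8.65 in RA, beside 9.22 and 9.25 in the other array of its group. The call was kept without ESC KD2 replicate 1 or RA KD2 replicate 1 and without both displaced arrays (adjusted p = 0.0107), and lost without any other of the 10 arrays in turn (adjusted p from 0.057 to 0.224). It was also lost with a replicate block (adjusted p = 0.0841), and kept with the block and without the displaced arrays (adjusted p = 0.00219).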

How the results depend on the processing

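The intensity trend, the replicate block and the KD2 arrays cannot move the KD1 medians of chromosome 1, so those alternatives are no check on them. Under the alternatives that can move them, the KD1 medians kept their direction. Leaving out 1 array in turn gave 0.14 to 0.19 in ESC and 0.21 to 0.23 in RA. In KD2 this gave -0.05 to -0.0057 in ESC and -0.048 to -0.026 in RA. Centring the arrays, which moves every gene of an array alike, gave 0.22 for KD1 in ESC, -0.095 for KD2 in ESC and 0.0061 for KD2 in RA, where the median elsewhere moved with it to 0.05. With no level rule KD1 in RA was 0.10 and KD2 in RA 0.028, beside 0.042 elsewhere, and at the 75th percentile KD1 in RA was 0.25, KD2 in ESC -0.072 and KD2 in RA -0.0086. Read against genes elsewhere under the same setting, the signs did not turn. The KD2 gap was -0.035 in ESC and -0.044 in RA, which centring cannot change. It was -0.013 and -0.014 with no level rule and -0.065 and -0.042 at the 75th percentile. With 1 array left out in turn it was -0.068 to -0.018 in ESC and -0.066 to -0.020 in RA. The KD1 gap without a level rule was 0.11 in ESC and 0.12 in RA.

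Counts of called genes depended on the arrays. In this paragraph they are given without the share over all genes at the level. They describe that dependence and are not read as particular to chromosome 1. With 12 arrays they were 1 and 37 for KD1 in ESC and RA, 1 and 2 for KD2, 1 and 27 for KD1 against KD2, 1 and 1 for the KD1 and KD2 state differences, and 133 for retinoic acid in scrambled. Without the displaced arrays they were, in that order, 26, 161, 14, 9, 18, 68, 39, 4 and 385. At the 75th percentile they were 0, 22, 0, 1, 0, 13, 0, 0 and 64. Leaving out 1 array in turn gave 0 to 1, 3 to 42, 0 to 4, 0 to 52, 0 to 10, 1 to 106, 0 to 4, 0 to 188 and 1 to 281. The single calls of KD1 and KD2 in ESC, KD1 against KD2 in ESC and the KD1 state difference were lost without either replicate of ESC KD1 or ESC Scrambled, or either RA Scrambled replicate. The calls of KD2 in RA became 0 without any ESC KD1, RA KD1 or scrambled array or RA KD2 replicate 2. The highest counts, 52, 106 and 188, came without RA KD2 replicate 1, and 281 without ESC KD2 replicate 2. The 27 for KD1 against KD2 in RA were 9 without either ESC KD1 replicate, 14 without either ESC Scrambled replicate, 10 without either RA Scrambled replicate, 7 without RA KD2 replicate 2 and 44 without either ESC KD2 replicate. The 37 for KD1 in RA were 19 without either ESC KD1 replicate, and the 133 were 1 without either ESC Scrambled replicate. Centring gave 4 for KD2 in RA, 2 for KD1 against KD2 in ESC and 3 for the KD1 state difference. Without the intensity trend the last was 2. With no level rule these were 8, 2 and 4.

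The labels give replicate numbers and no shared source, and same-numbered arrays of a state deviated together by correlations of 0.12 to 0.73. With a replicate block within each state the counts were 0 for KD1 in ESC, KD2 in ESC, KD1 against KD2 in ESC and the KD2 state difference. KD1 in RA had 39 (5.95%, beside 3.39% of genes at the level) and KD1 against KD2 in RA had 37 (5.64%, beside 2.03%). KD2 in RA and the KD1 state difference had 1 each (0.152%, beside 0.135% and 0.27%). Retinoic acid in scrambled had 263 (40.1%, beside 35.8%). With the replicate block and without the displaced arrays they were 159, 322, 56, 65, 109, 191, 140, 35 and 454, in the order above, or 24.2, 49.1, 8.54, 9.91, 16.6, 29.1, 21.3, 5.34 and 69.2% of the 656 genes, beside 15.3, 34.1, 6.26, 6.59, 11.6, 14.1, 19.9, 4.17 and 70.5% of genes at the level. The cause of these changes was not tested. Leaving out an array leaves fewer to estimate the spread, which the fit shares over all groups, the displaced arrays included where kept. Residual degrees of freedom were 6 with 12 arrays and 4 without the displaced arrays. For Niban1 in KD1 in ESC the difference was 1.87 in both fits, with an SE of 0.33 and 0.16. Depth in reads does not apply to arrays, and dim probe sets near background understate differences.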
